A study of Rattus norvegicus with 3 samples.

Results

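Of 34126 regions on chromosomes 1 to 20 that were listed as more methylated in MLP than in C newborn rat liver, 12946 were also listed as more methylated in MLP than in MLP-F and did not overlap any region listed as more methylated in MLP-F than in C. These 12946 regions, called members here, were 37.9% of the MLP vs. C regions (95% Wilson interval 37.4 to 38.5%) and 40.9% of the 31671 MLP vs. MLP-F regions on the same chromosomes. A member was therefore a region where the low protein library stood above both the control library and the library of the low protein diet with added folic acid, at the p cut-off of the authors, while the other 2 libraries were not listed as apart in the direction of MLP-F. The listing in all 3 comparisons chose the members, so their presence in a list is not a result. The lists are also wider than the sets the study reported. At a stricter false discovery rate, the expected share of false calls, it kept far fewer regions above C and above MLP-F. At that rate it reported no region apart between MLP-F and C. Its annotation tables at that rate hold 587 of the members. The lists give no read level for each library, and a region missing from the MLP-F vs. C list is not shown to be equal in those libraries.

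All samples were livers of male Wistar rats taken on postnatal day 1, and group names stand for maternal diets. The C diet contained 18% casein and the MLP and MLP-F diets 9%. Folic acid was 1 mg/kg in the C and MLP diets and 5 mg/kg in the MLP-F diet. Each group was 1 litter and gave 1 library of pooled DNA, from 6 animals by the sample labels and 8 by the methods of the study, so diet, litter and library cannot be told apart and no comparison has a replicate check. No group received added folic acid on the control diet. The study's sequencing table counts 16008758 tags in the C library, 32741244 in MLP and 23087218 in MLP-F. The MLP library, which every member had to exceed the others in, was the deepest, and the part of depth in the number of regions was not tested.

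In mammalian DNA, methyl groups are carried mainly by cytosines that stand before a guanine (CpG). Folate carries the one-carbon units that remake methionine from homocysteine, and S-adenosylmethionine made from methionine is the methyl donor of the DNA methyltransferases, with the liver as a main site of this metabolism. In MBD-seq, fragments with methylated CpG are captured on a methyl-CpG binding domain and sequenced, so a stretch with many CpG sites, or one present in many copies, can be captured strongly.

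The bisulphite primers of the study for Agtrap and Dnmt1, the members among its 5 bisulphite loci, show which DNA was read base by base there. The study showed bisulphite results for C and MLP only, with a difference at both loci, so they give no comparison with MLP-F. Bisulphite turns unmethylated cytosine into uracil, which is read as thymine, and leaves methylated cytosine unchanged. The primers are written without capitals, since none of the 5 primers spells a CpG. The forward primers hold no c and the reverse primers hold no g, so none could spell one. Whether the genome has a CpG under a primer was not checked, as its sequence was not read.
Agtrap forward: tttggtttgtttgtttagaaag
Agtrap reverse: ctaaaacccttctcctactac
Dnmt1 forward 1: tagagggttattttagtaatagttat
Dnmt1 forward 2: taaaggtaagatttaaagaaagg
Dnmt1 reverse: tatacataatttatcttcctcaaac

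The Agtrap primers belong to a member of 962 bp in an intron of Agtrap (rn4, chromosome 5, 165156757 to 165157718). Agtrap encodes a protein that binds the type 1 angiotensin II receptor and promotes its internalisation. The score of the region was 123 against C and 101 against MLP-F, where a score is −log10 of the p from the peak caller MACS, multiplied by 10. The nearest MLP-F vs. C region lay 31533 bp away with a score of 59.0. Within 50 kb of its centre there was 1 other member, with scores of 69.5 against C and 52.9 against MLP-F.

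The Dnmt1 member was an intronic region of 450 bp (chromosome 8, 19965118 to 19965567). Dnmt1 is the maintenance methyltransferase that copies CpG methylation onto the new strand after replication. The score of the region was 221 against C, place 1000 of the 12946 members, and 116 against MLP-F, place 4939. The nearest MLP-F vs. C region was 100859 bp away, and 0 such regions lay within 50 kb, against 3 MLP vs. C and 7 MLP vs. MLP-F regions. Of the other bisulphite loci, the Fgf5 region (score 95.2 against C) was in neither of the other lists, the Mcm6 region (50.5) overlapped an MLP-F vs. C region only, and the Sfmbt1 region (2905 against C and 2030 against MLP-F) overlapped regions of both.

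**Figure D1:**
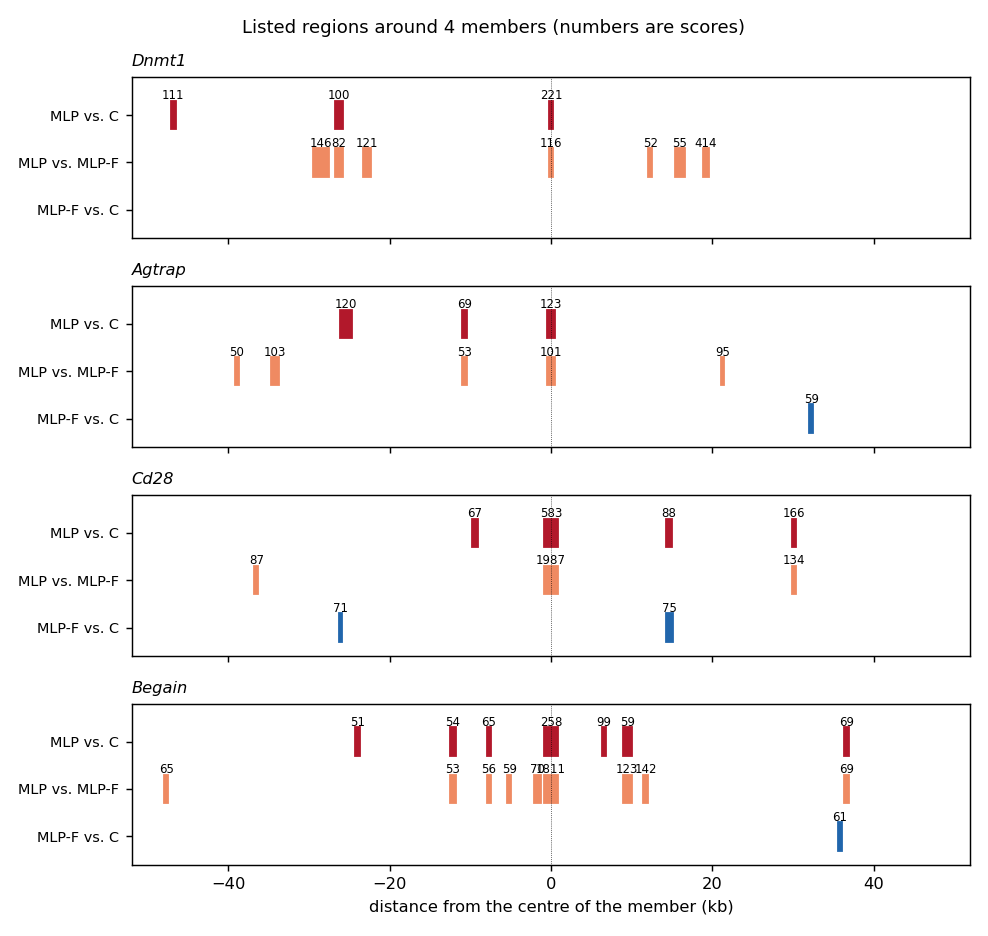
Regions of the 3 lists within 50 kb of the centre of the members of Dnmt1, Agtrap, Cd28 and Begain, with distance in kb on the horizontal axis, 1 row for each list and the score above each box. At distance 0 each locus has boxes in the upper 2 rows, those of MLP, with the same ends, and no box in the MLP-F vs. C row.

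A member was the same stretch of DNA in both MLP lists. All 12946 members had the same start and end there, as had all 13322 MLP vs. C regions that overlapped an MLP vs. MLP-F region, 39.0% of the 34126. Of the 7756 MLP vs. C regions (22.7%) that overlapped an MLP-F vs. C region, 0 had both ends in common with it. MLP was the treatment library in both lists that share ends, and its tags enter both scores of a member, so the scores are not independent of each other. A further 18349 MLP vs. MLP-F regions overlapped no MLP vs. C region and were not members.

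Members had a median score of 90.3 against C (10th to 90th percentile 55.9 to 200.2, range 50 to 3100) and of 94.2 against MLP-F (56.2 to 256.4, range 50 to 3100). Against C, 2132 members (16.5%) scored under 60, and against MLP-F 2082 (16.1%) did, where 50 is the lowest score in the lists. A smaller set of 688 (5.31%) was under 60 in both. At least 100 in both lists was reached by 3513 members (27.1%), at least 200 by 675 (5.21%) and at least 1000 by 35. Most members thus lay in the lower part of the scale, with few in the upper range.

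The score was higher against MLP-F in 6441 members (49.8%, 48.9 to 50.6%), higher against C in 5772 and equal in 733 (5.66%). Among the 12213 members with unequal scores, 52.7% (51.9 to 53.6%) were higher against MLP-F. In 9997 (77.2%) the scores lay within 2 times of each other. Beyond 2 times, 1920 members were higher against MLP-F and 1029 against C. Beyond 5 times, 167 members were higher against MLP-F and 2 against C. Scores rest on both libraries of a pair and on their depths, which were lower for C than for MLP-F, so a larger score is not a larger change in methylation.

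**Figure D2:**
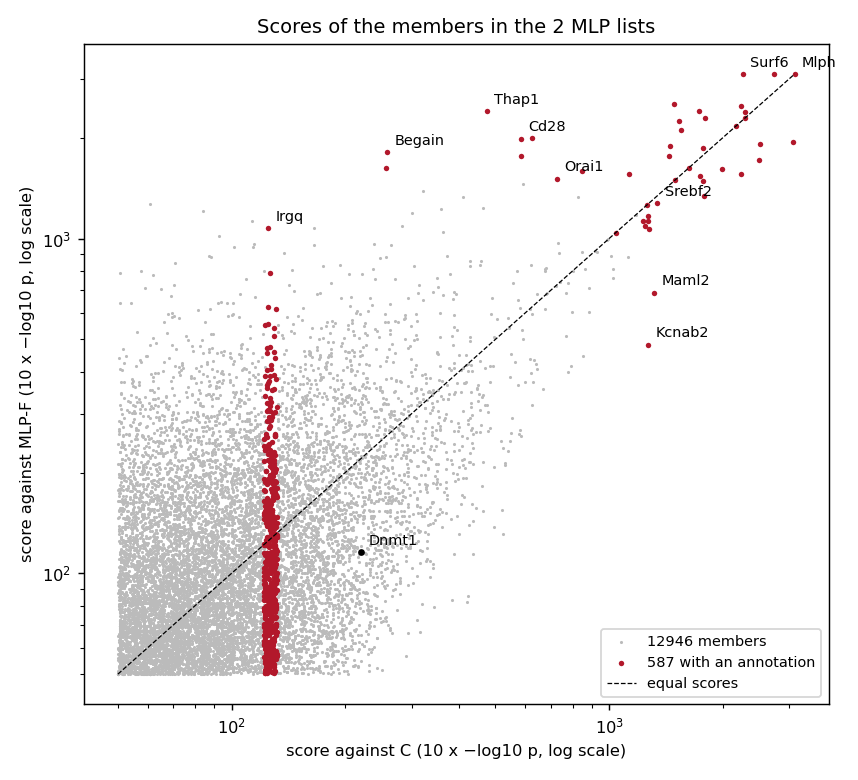
Score against C (horizontal) and score against MLP-F (vertical) of each of the 12946 members on log axes, with the 587 annotated members in red, Dnmt1 in black and equal scores on the dashed line. Annotated members form a column at scores of 122 to 132 against C, because the study's annotation covers little else below 1000, while Begain, Thap1 and Cd28 stand far above the line and Kcnab2 below it.

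Some score pairs recurred. The pair 78.68 and 78.68 was held by 23 members, 72.12 and 72.12 by 17, 65.76 and 65.76 by 14 and 59.6 and 59.6 by 13. In all, 1447 members shared both scores with another member, and the 12946 members had 12068 distinct pairs. Mtr and Bach2 are an example, on different chromosomes with 129 against C and 168 against MLP-F for both, so a score does not tell such regions apart.

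The edge of the rule was sharp on the genome but not in the values. The member nearest to an MLP-F vs. C region (chromosome 11, 28684917 to 28685655, scores 93.2 and 76.3) was 13 bp from it, and the region just outside the rule with the smallest overlap (chromosome 10, 7065459 to 7066082, scores 85.8 and 137) overlapped one by 8 bp. Such close cases were few. The median distance to the nearest MLP-F vs. C region was 31.8 kb, 293 members (2.26%) had one within 1 kb, and 10188 (78.7%) had none within 10 kb. By score, the lowest members stood at 50.01 against C with 243 against MLP-F, and at 50 against MLP-F with 59.3 against C.

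Members were a larger share of MLP vs. C regions at high scores than at low ones. From 50 to below 60 against C they were 26.2% of 8150 regions, from 100 to below 150 they were 47.5% of 6138, from 200 to below 300 they were 61.7% of 1399, and at 1000 or more they were 41 of 66 (62.1%). The share was higher in each bin up to 300 than in the one below, and lay between 56.1 and 62.1% from 200 upwards. Regions in neither of the other lists were the largest class in the lowest bin and 0 from 500 upwards. A high score against C makes any listing against MLP-F easier to reach, since MLP is in both, so these shares describe the classes and test nothing.

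**Figure D3:**
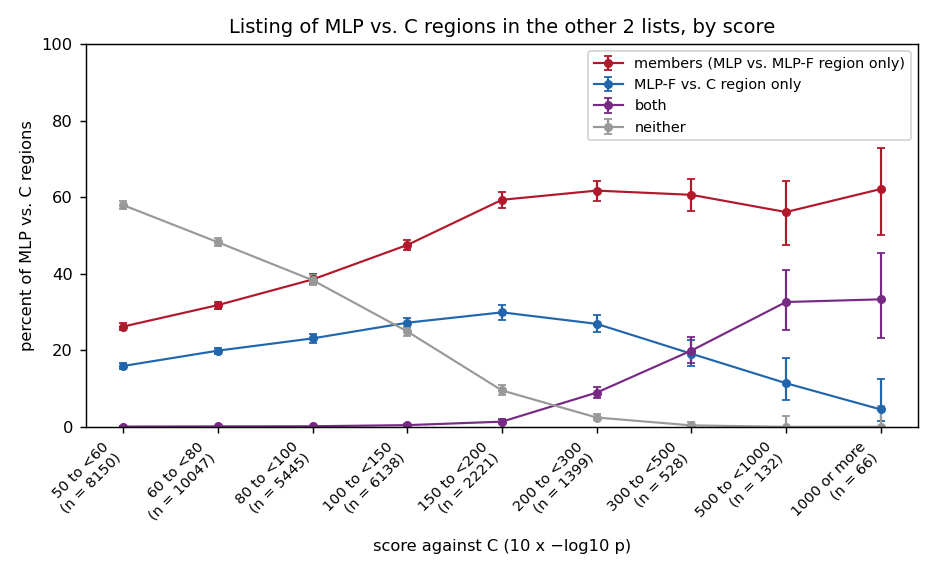
Percent of MLP vs. C regions (vertical) in each of 4 classes by their score against C (horizontal, with the number of regions per bin), with 95% Wilson intervals as bars. Members go from 26.2% in the lowest bin to 62.1% in the highest, and regions in neither of the other lists go to 0.

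Members had a longer median than regions of the other classes except those in all 3 lists. Their median length was 724.5 bp (range 230 to 5336) and they covered 10161 kb in all, against medians of 659 bp in the 7380 regions with an MLP-F vs. C region only, 630 bp in the 13424 regions of neither list and 768 bp in the 376 of both. Length grew with score, so the classes were also set side by side at scores of 122 to 132 against C. There the median was 755.5 bp in 554 members, 678 bp in 303 regions with an MLP-F vs. C region only, 697 bp in 270 of neither and 539 bp in 6 of both, so the order of the last class was the reverse there.

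Members were spread over all 20 chromosomes. Chromosome 5 had the highest share (925 of 2147 regions, 43.1%, 41.0 to 45.2%) and chromosome 17 the lowest (447 of 1340, 33.4%, 30.9 to 35.9%). Members were dense in a few places. Of 2470 windows of 1 Mb with a member the median held 4, and 52 held 15 or more. The fullest windows held 27 members each, on chromosome 7 from 10000001 to 11000000 (27 of 38 regions) and on chromosome 1 from 96000001 to 97000000 (27 of 44). The second of these contains the member upstream of Fgf21, a liver hormone of the fasting response.

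**Figure D4:**
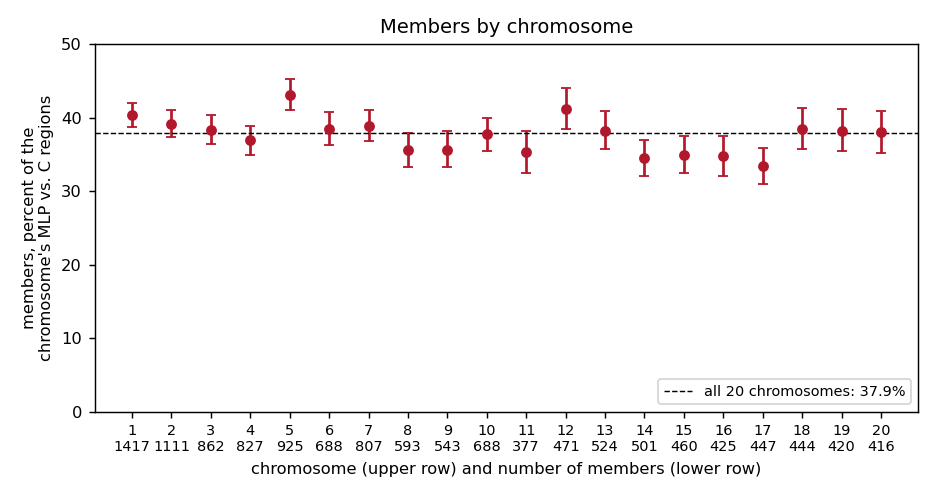
Members as a percent of the MLP vs. C regions of each chromosome (vertical), with 95% Wilson intervals as bars, chromosome and number of members on the horizontal axis and the share over all 20 as a dashed line. Points lie between 33.4% on chromosome 17 and 43.1% on chromosome 5.

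Most members stood alone at the scale of 10 kb. With gaps under 10 kb joined, 10852 were single and 2094 (16.2%) lay in runs, of which 853 were pairs. The longest run held 6 members over 39692 bp of chromosome 5 (160273171 to 160312862), with scores of 53.8 to 177 against C and 53.8 to 338 against MLP-F. The next, of 5 members, also lay on chromosome 5 (159875800 to 159897538, scores of 59.97 to 280 against C). The median gap between neighbouring members was 109 kb.

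The study's annotation tables named a nearest gene, a place or a repeat for 587 members (4.53%), 497 of them with a gene name and 436 distinct names. Below a score of 1000 against C its main table held only regions at 122 to 132, and at those scores 543 of the 554 members were annotated. The named genes are therefore a slice of the members by score and were chosen by the study on these same libraries, so that counts over gene groups are no independent evidence of a group. Of the 1168 annotated regions of all classes, 50.3% were members. Among the 587, 23 were named only in the study's table of MLP vs. MLP-F regions, which cannot name a region outside that list. Cd28, Orai1, Mre11a and Gpam are examples. Names are those of the nearest genes. Counts over gene lists cover annotated members only, so a listed gene without any may still have a member that was not annotated.

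At the top of both lists stood the region downstream of Mlph (chromosome 9, 90088630 to 90091720, 3091 bp), with a score of 3100 in both. A score of 3100 is the highest in either list and was held by 5 regions in each, so equal scores there do not order regions. Mlph links pigment granules to a myosin motor. A region downstream of Gpam, the mitochondrial acyltransferase at the first step of triacylglycerol synthesis, scored 2285 in both. Mre11a, a nuclease of double-strand break repair, had an intronic member at 2499 against C and 1718 against MLP-F. The Zfyve9 member, in an intron of a gene whose product anchors SMAD proteins, reached 2514 and 1920. Mre11a and Zfyve9 thus scored higher against C, and Gpam equally in both.

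Others at the top scored higher against MLP-F. Surf6, a nucleolar protein gene, had an intronic member at 2264 against C and 3100 against MLP-F. Polr1a, whose product is the catalytic core of the polymerase that makes ribosomal RNA, had 1552 and 2103. Atl1, a GTPase that fuses endoplasmic reticulum membranes, had 1487 and 2528. Ppp2r5c, which directs protein phosphatase 2A to its substrates, had 1439 and 1758.

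The widest gaps among strong named members were also of that kind. The Begain member, in an intron of a synaptic protein gene, scored 258 against C, place 655, and 1811 against MLP-F, place 20. Thap1, a zinc finger transcription factor, had a member upstream with 475 against C and 2402 against MLP-F. Cd28, a costimulatory receptor of T cells, had one upstream (chromosome 9, 59336141 to 59337909) with 583 and 1987. In each of these 3 the region was listed against C far more weakly than against the folate-supplemented library. Irgq, chosen after its values were seen, was the extreme among members at 122 to 132 against C, with 125 against C and 1071 against MLP-F.

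In the opposite direction, the member upstream of Maml2, a Notch coactivator, had 1315 against C and 689 against MLP-F, and the intronic one of Kcnab2, a potassium channel subunit, 1268 and 482. Kcnab2 too was chosen after its values were seen. The largest ratio of the score against C to that against MLP-F over all members was at an unnamed region of chromosome 1 starting at 59658291, with 420 and 81.9, also chosen after its values were seen.

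A LINE 1 repeat was named for a larger share of the annotated members than of the annotated regions with an MLP-F vs. C region only. At scores of 122 to 132 against C, L1_Rn, a rat LINE 1 element, was named for 90 of 543 members (16.6%, 13.7 to 19.9%), for 12 of 298 regions with an MLP-F vs. C region only (4.03%, 2.32 to 6.91%) and for 28 of 262 in neither list (10.7%). LINE 1 elements are retrotransposons whose many copies are kept methylated in most somatic cells. Any LINE 1 name was given to 29.3% of members (25.6 to 33.2%), 16.1% (12.4 to 20.7%) and 26.7%. For both names the interval of the members lay above that of regions with an MLP-F vs. C region only and overlapped that of regions in neither list. In the class of both lists, with 6 annotated regions at those scores, L1_Rn was named for 1 and any LINE 1 for 4. The intervals cover counting error only, and with 1 library per group the difference was not tested.

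Members named with L1_Rn were longer, at a median of 1006 bp (348 to 2115) against 720 bp in the other annotated members of those scores. Their median score against MLP-F was 139.5 against 95.3, and 53.3% scored higher against MLP-F than against C, compared with 30.0% of the others. They lay on 19 chromosomes, and 16.7% were intronic against 46.6%. L1_Rn regions outside the members were also longer and less often intronic than other annotated regions of their class. Median lengths were 968.5 against 671 bp in neither list, and 744 against 677 bp with an MLP-F vs. C region only. Intronic shares in these classes were 14.3 against 41.0% and 16.7 against 42.7%. The score against MLP-F had a part in choosing the members, so these values describe them without a test. The study's tables name 2 or more repeats for 291 of the 587 annotated members, and whether a named repeat lies within a region was not checked on sequence. Of read pairs with several places in the genome the authors kept the best alignment or discarded the pair, so reads of near-identical copies are uncertain.

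For introns and tandem repeats the intervals of the classes overlapped. Introns held 226 of 543 members (41.6%, 37.5 to 45.8%), 41.6% of 298 regions with an MLP-F vs. C region only and 38.2% of 262 in neither list. Tandem repeats were named for 23.4%, 26.5% and 23.7%, and no repeat for 20.1%, 23.2% and 22.9%. Of 36 annotated members with scores of 1000 or more against C, 35 had a tandem repeat named and 16 were intronic. A tandem repeat was named for all 15 other annotated regions with such scores as well. Simple repeats whose unit holds a CpG were named for 15 annotated members, such as CGGTG near Gpam and CGG in Begain. That is 2.56% of the annotated members (1.55 to 4.17%), against 3.05% of annotated regions in neither list (1.56 to 5.91%). With an MLP-F vs. C region only it was 0 of 299 (0 to 1.27%), and in all 3 lists 0 of 20.

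**Figure D5:**
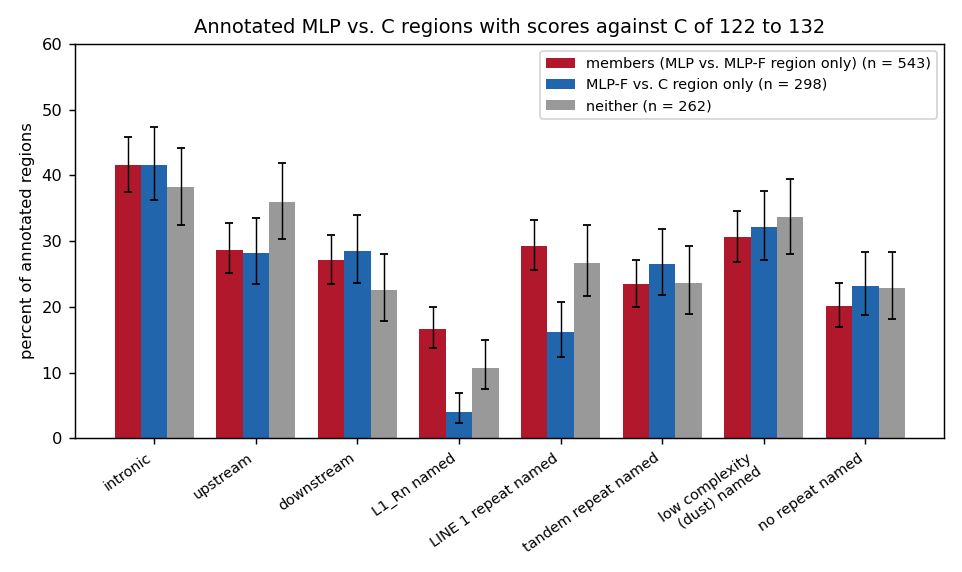
Percent of annotated MLP vs. C regions with scores of 122 to 132 against C (vertical) that were in a place or had a repeat named (horizontal), for members and 2 other classes, with 95% Wilson intervals as bars. L1_Rn stands at 16.6% in members, 4.03% in regions with an MLP-F vs. C region only and 10.7% in neither, while the intronic bars lie between 38.2 and 41.6%.

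For T cell and immune regulation, 9 of 50 listed genes had an annotated member. Members were 10 of the 14 annotated regions of the list, beside 50.3% over all annotated regions. The Cd28 and Orai1 regions were among those named only in the table of MLP vs. MLP-F regions, and the difference was not tested. Ptprc, the leucocyte phosphatase CD45, had a member upstream at 132 against C and 128 against MLP-F, and Satb1, a chromatin organiser of thymocytes, an intronic one at 128 and 144. Ctla4, the inhibitory receptor that competes with Cd28 for its ligands, had one downstream at 122 and 56.3. Nfatc2, a calcium-regulated transcription factor, had 2 members, at 131 and 204 and at 126 and 52.9. Orai1, the pore of the store-operated calcium channel, had one overlapping its exon or UTR at 727 and 1509. Bach2, a repressor that restrains effector T cells, had 129 and 168, Traf3, a signalling adaptor, 128 and 90.2, and Ptpn2, a phosphatase that limits cytokine signalling, 128 and 61.1. Another 4 genes of that list (Bcl11b, Foxp1, Fyn and Gata3) had annotated MLP vs. C regions that were not members. Of 22 blood cell genes, 0 had an annotated member and 2 had other annotated regions. Members were 0 of the 3 annotated regions of that list, which is few beside 50.3% to read.

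Of 44 genes of lipid metabolism, 5 had an annotated member. Members were 5 of the 10 annotated regions of the list, beside 50.3% over all annotated regions. The other annotated regions of the list were near Abhd6, Acadm, Got2, Gpam and Vldlr. Srebf2, the transcription factor of cholesterol synthesis, had an intronic one (chromosome 7, 120538526 to 120540073) at 1343 against C and 1275 against MLP-F, with 6 other members within 50 kb. Gpam stood at the top of the lists, as given above. Fgf21 had 126 and 68.2, Ppard, a fatty acid-sensing nuclear receptor, 127 and 55.1, and Elovl5, an elongase of polyunsaturated fatty acids, 129 and 168. Only Elovl5 of these last 3 was higher against MLP-F. Of 34 hepatocyte genes, Mttp, which loads lipid onto apolipoprotein B, had an annotated member, at 124 and 110. Members were 1 of the 2 annotated regions of the hepatocyte list.

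The methyl supply and DNA methylation list held 44 genes, and 1 of them, Mtr, had a member in the annotation tables, with Dnmt1 as a second from the bisulphite loci. Mtr encodes methionine synthase, which uses methylfolate to remake methionine. Its intronic member (chromosome 17, 68832778 to 68833250, 473 bp) had a score of 129 against C and of 168 against MLP-F. The nearest MLP-F vs. C region was 13140 bp away. Tet1, which oxidises methylcytosine, had an annotated region that was not a member. Members were thus 1 of the 2 annotated regions of this list. Of 45 polycomb, trithorax and histone modifier genes, 0 had an annotated member. Members were 0 of the 6 annotated regions of that list, beside 50.3% over all annotated regions, and the difference was not tested. Annotated regions outside the members were named for 6 of them (Chd9, Mllt3, Setbp1, Setd2, Sfmbt1 and Smarca2).

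For cell cycle and centrosome, members were 8 of the 12 annotated regions of the list, beside 50.3% over all annotated regions. The difference was not tested. Annotated regions of Cep135, Cep350, Pftk1 and a further one of Cdc2l6 were not members. Of the 44 genes, 7 had an annotated member. Besides Mre11a, these were Cep152, a scaffold of centriole duplication (intronic, 1989 against C and 1613 against MLP-F), Ccnd1 and Ccnd2, D-type cyclins of the G1 phase (upstream, 124 and 185, and intronic, 123 and 158), E2f7, a repressor of the E2F family (upstream, 128 and 50.7) and Nek7, a mitotic kinase (intronic, 122 and 51.3). Cdc2l6, also named Cdk19, a kinase of the Mediator complex, had 2 intronic members at 1774 and 1859 and at 124 and 62.5. E2f7 and Nek7 were among the members close to the lowest score against MLP-F.

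The remaining lists gave few annotated members. Members were 3 of 6 annotated regions for insulin and FOXO signalling, 3 of 4 for growth factors and 1 of 2 for renin-angiotensin. They were 5 of 10 for the loci of human association studies and 4 of 16 for the genes of both methylation and expression lists. Over all annotated regions the share was 50.3%, and no difference was tested. Among 36 genes of insulin and FOXO signalling, 3 had an annotated member and 3 another annotated region. Enpp1, an inhibitor of the insulin receptor, had 126 against C and 76.9 against MLP-F, and Abcc8, the sulphonylurea receptor of insulin-secreting cells, 122 and 70.6, beside Ppp2r5c. Of 29 growth factor genes, Nrg1, a ligand of ErbB receptors, had 128 and 59.3, Prkce, a protein kinase C, 128 and 142, and Ptk2, the focal adhesion kinase, 129 and 54.1. Of 18 renin-angiotensin genes, Agtrap had an annotated member. Of 10 loci that the study matched to human association studies, 5 had an annotated member. They were Agtrap, Bach2, Ctla4, Ptpn2 and Vti1a, a vesicle SNARE with 125 and 187. Of 15 genes in both the study's methylation and expression lists, 4 had an annotated member: Mlph, Abcc8, Eif2b3 and Tpcn2. Eif2b3, a subunit of a translation initiation factor, had 129 and 59.6, and Tpcn2, a lysosomal ion channel, 131 and 68.9. Annotated regions outside the members were named for 11 of those 15.

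Among annotated members, 20 names had 2 or more. The most frequent were small RNA genes with many copies in the genome: SNORA17 with 23 members, U6 with 14, 7SK with 8 and U1 with 4. With the other small RNAs, they were nearest to 64 of the 587 annotated members (10.9%). The share among other annotated regions was not counted, so it is not shown to be particular to members. Protein-coding genes with 2 included Sema3f, a secreted guidance factor, at 131 and 617 and at 131 and 99.8, and Bbs9, Efna5, Erg and Wdfy3. In Sema3f the members had near-equal scores against C and differed in the score against MLP-F.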

How the data were processed

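Methylated DNA was measured by MBD-seq in 3 pooled liver libraries, 1 per group, grouped by their labels. Read pairs of 76 bp were aligned by the authors to rn4 (Bowtie), and MACS was run on each pair of libraries with a p cut-off of 1e-05, a bandwidth of 300 bp, a model fold of 32 and a genome size of 2e+09 bp. The submitters' processing notes also name CASAVA, with program versions not given in the sources used here. In the deposited lists a region has its position and a score, which is −log10 of the MACS p multiplied by 10, with no fold and no level per library. Their depth comes from the study's table, and unique tags numbered 13322026 (C), 26145395 (MLP) and 17306868 (MLP-F).

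Starts were converted to 1-based positions, and regions were classed by overlap of at least 1 bp. The class assignment was tested on simulated regions. No test between diets was possible with 1 library per group. Wilson intervals cover counting error only, and regions are not replicates of a diet. Gene names, places and repeats came from the study's annotation tables as labels, and 326 of 436 names matched a RefSeq symbol or synonym. A match by synonym can be wrong: Aim1 was matched to Aurkb, while the study describes Aim1 as a different gene. Protein entry names such as ABCC8_RAT were counted under the gene they spell. Genes were named where they were among the 25 highest by either score of the members with a gene name, were loci that the study names, belonged to one of 10 gene lists, or had 2 or more members, and exceptions are marked in the text. The members, lists and rule were chosen with earlier results of these data known. The alternatives were 7 other settings of overlap, score, sequence and annotation table. The expression arrays, the sequence of the regions and regions lower in the first library were left out. Python 3.11.15, pandas 2.3.3, numpy 2.4.6, SciPy 1.17.1 and matplotlib 3.10.9 were used.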

Additional observations from a re-analysis of the deposited data

How the results depend on the processing

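A score of at least 100 in all 3 lists gave 3595 regions that met the rule. Their medians were 160.9 against C, 177.5 against MLP-F and 825 bp, and 53.4% scored higher against MLP-F. With at least 100 in the MLP lists and the MLP-F vs. C list whole, the 3513 members had medians of 159.1, 178.7 and 825 bp, and 54.6% were higher against MLP-F. At least 200 in all 3 lists gave 714 regions, with medians of 307.4, 331.9 and 920.5 bp, and 48.2% of the annotated were intronic. A minimum score removes low members by construction. Applied to the MLP-F vs. C list, it also admits regions that a weaker region there had excluded, so these sets are not subsets of the members. A reciprocal overlap of 50% kept the number at 12946, a distance of 1 kb to any MLP-F vs. C region gave 12653, and all sequences gave 13795. Of 37 values under alternatives, 22 moved by less than the limits set for them and 15 by more. A change of direction was found in 0, though counts and medians have no direction to change. No paired analysis was possible because each group has 1 library and no result comes from a test between libraries. With 1 library per group no sample could be left out. Scores depend on the depth of both libraries, which differed between groups, and a region absent from a list was not detected at this depth.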

Other observations

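Outside chromosomes 1 to 20, regions of chromosome X met the same conditions of overlap more often. Of 938 MLP vs. C regions there, 530 (56.5%, 95% Wilson interval 53.3 to 59.6%) did, against 37.9% on chromosomes 1 to 20, and 319 of 934 (34.2%) did on sequence not placed on a chromosome. The difference was not tested, since each group is 1 library.

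The members with the highest ratio of the score against MLP-F to that against C had no gene name in the annotation tables and were chosen after their values were seen. They were a region of 2504 bp on chromosome 16 (rn4, 19019584 to 19022087), with 60.8 against C and 1270 against MLP-F, and regions on chromosomes 10 (36429350 to 36430522, 50.7 and 786) and 12 (21515285 to 21516604, 84.0 and 1205). Those on chromosomes 16 and 10 were near the lowest score of the list against C, and the one on chromosome 12 was below the median of the members.

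Annotated members that overlap an exon or UTR numbered 11. Among them, chosen after their values were seen, were Xrcc3, a recombination repair gene (125 against C and 370 against MLP-F), Heg1, a receptor of vessel development (130 and 209), and Brf2, a subunit of the RNA polymerase III machinery (123 and 75.6).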
